A study of Mus musculus with 36 samples.

Results

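The forelimb gene Tbx5 and the hindlimb genes Tbx4 and Pitx1 were followed through the H3K27ac ChIP-seq peak lists of 18 mouse forelimb libraries. H3K27ac is histone H3 acetylated at lysine 27, found at active promoters and enhancers. The members were the peaks overlapping 3 fixed mm9 windows, chr5:120200000-120500000 (300 kb) for Tbx5, chr11:85680000-85800000 (120 kb) for Tbx4 and chr13:55700000-56000000 (300 kb) for Pitx1. They held 652 of the 732259 peaks of all lists, 268 at Tbx5, 165 at Tbx4 and 219 at Pitx1. Stretches covered by peaks of at least 2 lists were taken as consensus regions, and the windows held 54 of 63594, namely 22 at Tbx5, 14 at Tbx4 and 18 at Pitx1.

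All libraries came from pooled forelimbs of FVB embryos at embryonic day 11.5 that had received no treatment. The groups were mm1179 KO (4 libraries), hs72 KO, hs1262 KO, hs1467 KO, hs1586 KO and hs1603 KO (2 libraries each), every line lacking the enhancer it is named for, and WT (4 libraries). The study asks what loss of an enhancer does in the limb. No hindlimb library was compared here, so the windows are compared with each other within forelimb tissue. The labels do not give the number of embryos per pool or say whether replicates came from separate litters, so p-values measure only the spread between these libraries, which may be technical. A tag carried by the lists, whose meaning the labels do not give, divided them into 4 sets. Set 1 held replicates 1 and 2 of mm1179 KO and WT. Set 2 held replicates 3 and 4 of both together with the hs72 KO libraries. Sets 3 and 4 held replicate 1 and replicate 2 of the other 4 lines and no WT library. Lists of set 3 held 26550 to 32472 peaks, those of sets 1 and 2 held 30719 to 45267 and those of set 4 held 54375 to 58753, and the lists give no read counts, so depth is unknown.

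Tbx5 encodes a T-box transcription factor that the embryo needs to start the forelimb bud, where it switches on the growth factor gene Fgf10. Tbx4, its close paralog, acts in the hindlimb bud. Pitx1 encodes a homeodomain transcription factor of the hindlimb, where it gives the limb its hindlimb form and promotes Tbx4 expression. In RefSeq's gene order for GRCm38, Tbx5 lies between Tbx3 and Rbm19, Tbx4 lies between Tbx2 and Brip1, and Pitx1 lies above Txndc15, Pcbd2 and Catsper3, in that order, and below Macroh2a1. Tbx2 and Tbx3 encode T-box repressors used in forelimb and hindlimb alike, and Catsper3 a subunit of a sperm calcium channel. No mm9 annotation was used, so no peak was assigned to a promoter. Which peaks of each window lie at the gene it is named for and which at neighbours was not tested.

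RefSeq's promoter table (GRCm38.p6) held a promoter for 1 of the 3 genes, Tbx4. It is shown because it was the only one held, and no peak was assigned to it. It runs 5′ to 3′ from 250 bases before to 50 bases after the start on the plus strand, and capitals mark the TATA-box letters TATAA. These letters begin at base 168 of the 300 shown, and whether they act as a TATA box was not tested.
Tbx4 promoter: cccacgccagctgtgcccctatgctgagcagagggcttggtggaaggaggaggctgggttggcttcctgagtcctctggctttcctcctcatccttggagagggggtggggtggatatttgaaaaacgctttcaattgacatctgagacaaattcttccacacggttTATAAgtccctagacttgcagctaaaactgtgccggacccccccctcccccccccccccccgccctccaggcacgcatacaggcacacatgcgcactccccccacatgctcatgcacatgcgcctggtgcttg
Searched on both strands, TATAA was held by 24.9% of the 32851 promoters of this length. Its 2 matches in the Tbx4 promoter overlap, 1 on each strand. The T-box half-site AGGTGT (13.7% of promoters) and the bicoid-type homeodomain site TAATCC (7.06%) were not among these letters. The promoter held 8 CpG dinucleotides, more than 51.4% of all promoters.

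Each of the 3 windows carried H3K27ac peaks in every list, the hindlimb genes' windows included. For comparison, 53.9% of all 300 kb tiles of the genome and 33.7% of all 120 kb tiles did so. The Tbx5 window had 9 to 20 peaks per list with a median of 15, the Tbx4 window 5 to 15 with a median of 8.5, and the Pitx1 window 3 to 19 with a median of 13.

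Peaks covered 15.2% to 32.6% of the Tbx5 window (median 21.96%, mean 22.7% ± 5.13, SD, n = 18). They covered 19.5% to 43.7% of the Tbx4 window (median 25.3%, mean 27.04% ± 7.32, SD, n = 18). They covered 2.70% to 15.5% of the Pitx1 window (median 8.68%, mean 8.83% ± 3.67, SD, n = 18). Every library thus had the Pitx1 window as the most sparsely covered of the 3, and Tbx5 and Tbx4 overlapped. The Tbx5 window was covered more densely than a median of 98.5% of the 300 kb tiles in a list, the Tbx4 window more than a median of 98.3% of the 120 kb tiles, and the Pitx1 window more than a median of 87.3% of the 300 kb tiles. In every list at once, the Tbx5 window exceeded 95.1% of the tiles of its length, the Tbx4 window 96.1% and the Pitx1 window 60.2%.

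**Figure D1:**
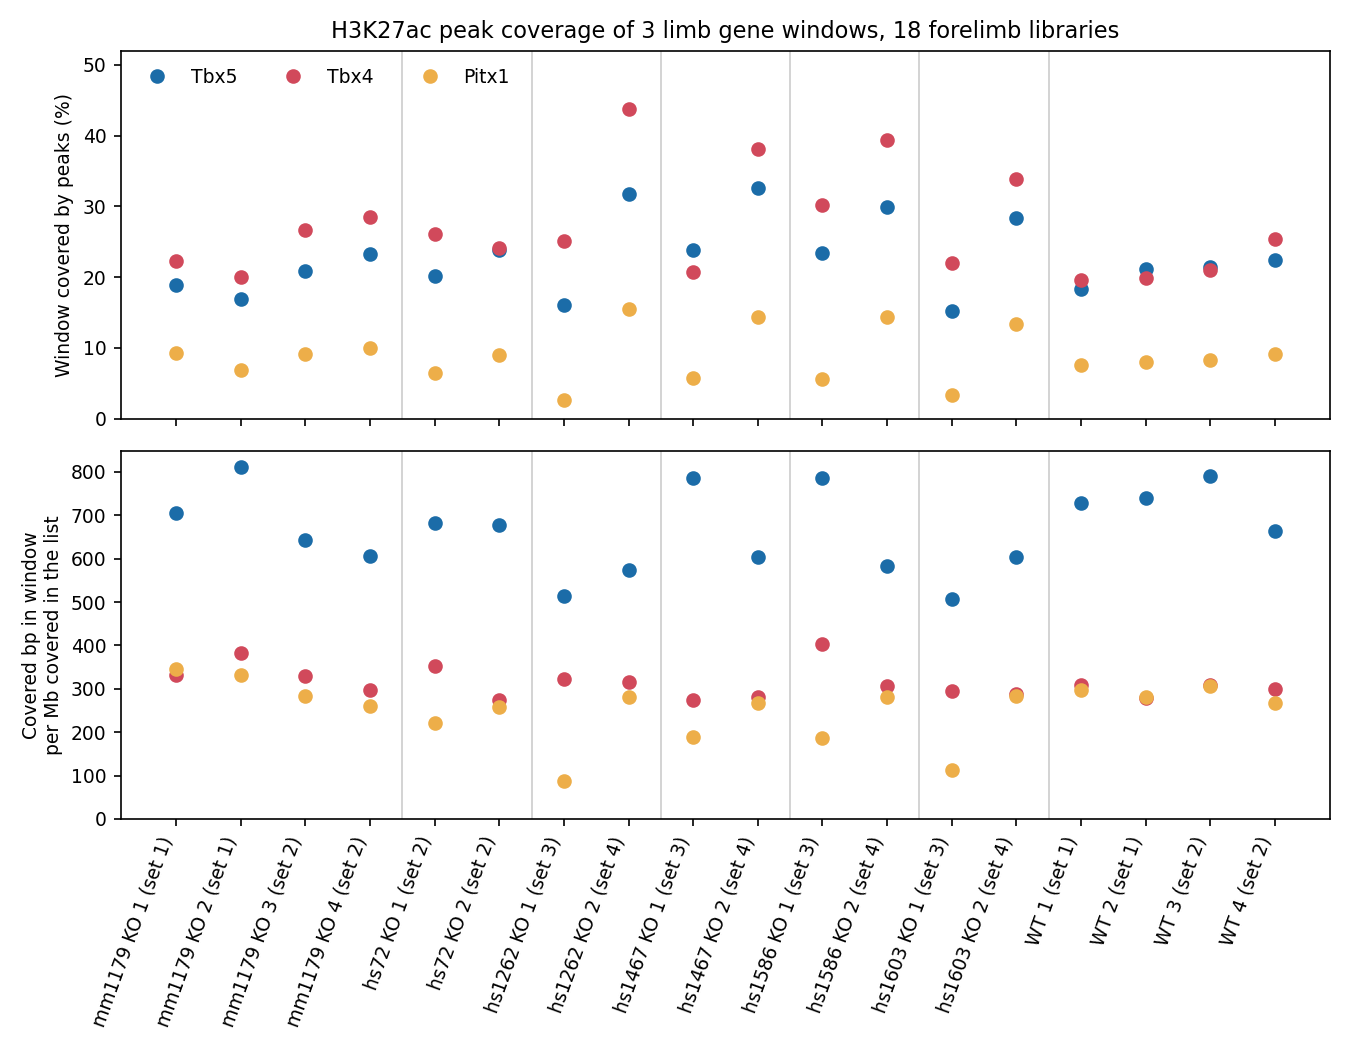
Share of each window covered by peaks (upper panel, %) and covered bases in the window per Mb covered in the whole list (lower panel), for each of the 18 libraries on the x axis, with the tag set in brackets. Points are single libraries and colours the 3 windows; Pitx1 is lowest in every library of the upper panel, and the lower panel does not adjust for the 300 kb length of the Tbx5 and Pitx1 windows against 120 kb at Tbx4.

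The forelimb gene's window was covered more than that of Pitx1 in 18 of 18 lists, by 13.9 ± 2.61 percentage points on average (SD of the differences, two-sided permutation p = 2e-05 by 100000 sign flips, the smallest they can give; 6e-05 adjusted over 6 comparisons by Benjamini-Hochberg). Within sets 1 to 4 the mean difference was 10.9, 13.3, 15.3 and 16.2 points. The Tbx4 window also exceeded that of Pitx1 in 18 of 18 lists, by 18.2 ± 5.03 points (permutation p = 2e-05, adjusted 6e-05), with 12.5, 16.6, 20.2 and 24.4 points in sets 1 to 4. With windows cut to 120 kb around their centres, Tbx5 and Pitx1 differed by -0.55 points (permutation p = 0.446), since that cut removes most of the densely covered Tbx5 stretch, and Tbx4 and Pitx1 differed by 11.3 points (permutation p = 2e-05). With the windows widened by 50% of their length on both sides, Tbx5 and Pitx1 differed by 7.77 points (permutation p = 2e-05). These tests show how steadily 2 windows differed over lists that share tissue and sets, not a difference between conditions.

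As a share of its window Tbx5 was lower than Tbx4 in 15 of 18 lists, by -4.33 ± 3.98 points (Tbx5 minus Tbx4, permutation p = 0.00034, adjusted 0.000456), with -1.56, -3.28, -4.88 and -8.14 points in sets 1 to 4. The difference was -11.9 points with equal windows of 120 kb around the centres and -9.74 points with the windows widened by 50% of their length on both sides (permutation p = 2e-05 each). The cut around the centres removes most of the densely covered Tbx5 stretch. In the best-covered 120 kb of each window, chosen after the data were seen, Tbx5 had 48.1% and Tbx4 27.04%, a difference of 21.1 points. The Tbx4 window is itself 120 kb, so only Tbx5 had a choice of stretch. The sign therefore depended on the stretch taken at Tbx5. As bases per Mb covered in the whole list, a measure that does not adjust for window length, the 300 kb Tbx5 window held 667 ± 94.6, the 120 kb Tbx4 window 314 ± 35.9 and the 300 kb Pitx1 window 252 ± 69.3 (SD, n = 18 each).

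At Tbx5 the mark was gathered in a pair of broad domains. The first spanned 23.7 kb at chr5:120240750-120264450 and was called in all 18 lists, at a mean score percentile of 98.5 ± 1.32 (SD, n = 18). A score percentile is the rank of the authors' peak score within its list. The second spanned 30.0 kb at chr5:120269828-120299829 and was called in 16 lists, at a mean percentile of 97.0 ± 6.09 (SD, n = 16). Of all 63594 regions, 81 were at least as wide as the first domain and 33 as wide as the second. The widest peak of the Tbx5 window measured 24.2 ± 2.75 kb, that of the Tbx4 window 6.44 ± 1.59 kb and that of the Pitx1 window 4.22 ± 0.514 kb (SD, n = 18 each), and the Tbx5 peak was the widest in all 18 lists. Of the bases covered in the Tbx5 window, 89.2% lay below its centre, and 50.2 kb at chr5:120343021-120393174 had no peak in any list.

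The first Tbx5 domain was covered over 19.8, 17.1, 22.4 and 22.2 kb in mm1179 KO replicates 1 to 4, against 17.4, 19.2, 19.6 and 20.3 kb in WT replicates 1 to 4. The groups overlapped. The second domain was covered over 25.6, 23.6, 26.3 and 26.4 kb in mm1179 KO, against 24.995, 26.5, 25.6 and 25.9 kb in WT, and here too they overlapped. Replicate 1 of hs1262 KO and of hs1603 KO, both of set 3, had no peak in the second domain, where replicate 2 of these lines had 29.8 and 27.5 kb. The other set 3 libraries, replicate 1 of hs1467 KO and of hs1586 KO, had 28.6 and 29.9 kb there, at percentiles of 98.9 and 74.5.

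Next by percentile at Tbx5 came chr5:120314026-120318672 (76.7, 18 lists), chr5:120227516-120232338 (63.6, 17 lists) and chr5:120456985-120459619 (57.3, 18 lists). The other 17 regions had mean percentiles of 13.99 to 40.4. The median score percentile over the peaks of the Tbx5 window was accordingly 44.4 ± 5.999, against 79.5 ± 15.3 at Tbx4 and 47.1 ± 10.2 at Pitx1 (SD, n = 18 each). The 150 kb below the Tbx5 window were covered to 14.4% ± 7.70 and those above it to 5.71% ± 4.52 (SD, n = 18 each), less than the window in every list.

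At Tbx4 the mark was spread over several separate strong regions, none as wide as either Tbx5 domain. The strongest, 5.62 kb at chr11:85727794-85733416, had a percentile of 97.2 ± 1.11 (SD, n = 18) and was covered by a single peak of 3.78 to 5.62 kb in each of the 18 lists. It was wider than 92.9% of all regions. The others among the top 5 were chr11:85685139-85692674 (90.6, 15 lists), chr11:85771501-85777788 (88.7, 18 lists), chr11:85753670-85757101 (88.3, 18 lists) and chr11:85735981-85743809 (85.2, 18 lists). Set 3 gave the lowest values of several. At chr11:85735981-85743809 percentiles ran from 4.27 in hs1603 KO replicate 1 to 96.9, at chr11:85753670-85757101 from 16.1 in the same library to 97.8, and at chr11:85685139-85692674 from 34.4 in hs1586 KO replicate 1 to 99.9. The region at chr11:85685139-85692674 was missed by replicate 1 of hs1262 KO, hs1467 KO and hs1603 KO. The 60 kb below the Tbx4 window, on the Tbx2 side, were covered to 33.5% ± 13.2 (SD, n = 18) and exceeded the window in 14 of 18 lists, and the 60 kb above it were covered to 16.9% ± 4.03.

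At Pitx1 the mark was sparser than in the other 2 windows, though denser than in a median of 87.3% of the 300 kb tiles. Of its 18 regions, 1 was called in every list and 7 in every list outside set 3. The region called in every list, 4.96 kb at chr13:55854713-55859669, had a percentile of 91.4 ± 2.69 (SD, n = 18). Its lowest and highest values were 86.0 in WT replicate 1 and 97.5 in hs1586 KO replicate 1. Next came chr13:55793084-55797272 (88.9, 15 lists), chr13:55814952-55818223 (82.0, 14 lists), chr13:55826129-55830123 (81.4, 15 lists) and chr13:55723168-55725619 (78.8, 14 lists). Only lists of set 3 missed these regions. Set 3 gave the lowest percentiles of a pair of these, 41.2 in hs1586 KO replicate 1 at chr13:55793084-55797272 and 1.44 in hs1467 KO replicate 1 at chr13:55826129-55830123, where the highest were 99.9 and 92.8. Above chr13:55877386 peaks were rare. In the 10 kb bins centred 35 to 95 kb above the window's centre, no bin had a peak in more than 1 of 18 lists. A stretch of 36.9 kb at chr13:55877534-55914462 and one of 29.8 kb at chr13:55926528-55956325 had none. Of the covered bases, 68.0% lay below the centre. The 150 kb below the Pitx1 window were covered to 12.9% ± 7.19 (SD, n = 18) and exceeded the window in 14 of 18 lists, and the 150 kb above it were covered to 3.87% ± 2.05. The gene order places Catsper3, Pcbd2 and Txndc15 below Pitx1.

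**Figure D2:**
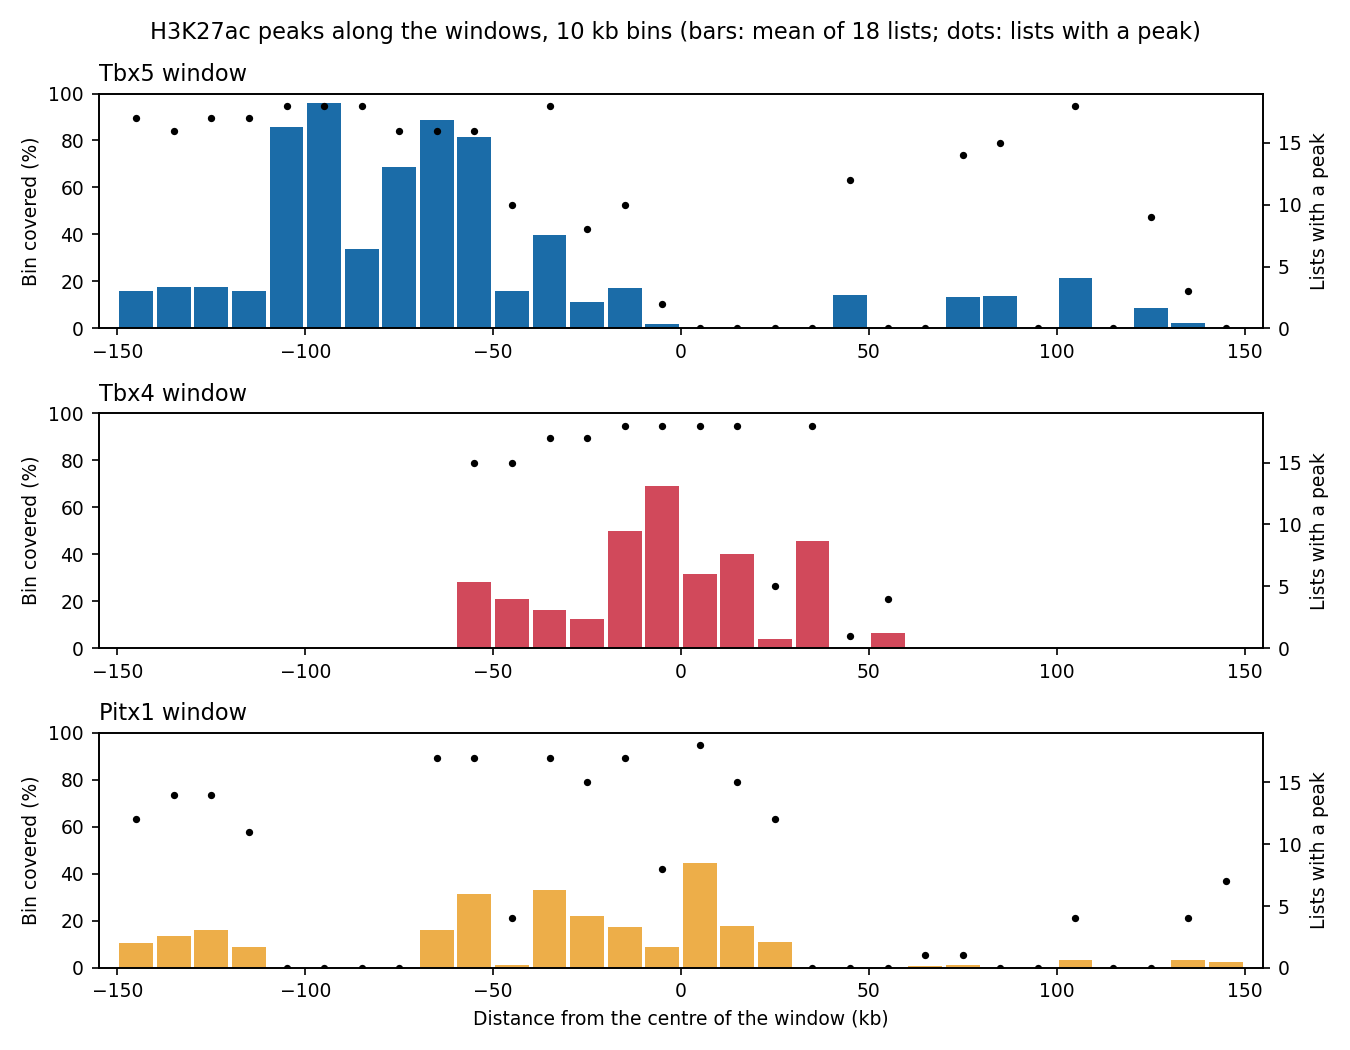
Peaks along the 3 windows in 10 kb bins, by distance from the window's centre in kb. Bars give the mean share of each bin covered over 18 lists (left axis, %) and dots the number of lists with a peak in the bin (right axis): the 2 broad domains reach 95.9% and 88.9% of a bin at Tbx5, separate regions reach 69.1% at Tbx4, and no bin passes 44.8% at Pitx1.

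The highest score percentile in the window averaged 98.5 ± 1.32 at Tbx5, 97.4 ± 1.27 at Tbx4 and 93.4 ± 2.45 at Pitx1 (SD, n = 18 each). Tbx5 was above Pitx1 in 16 of 18 lists by 5.08 ± 3.19 (permutation p = 1e-04, adjusted 2e-04), and Tbx4 was above Pitx1 in 15 of 18 by 3.96 ± 3.17 (permutation p = 0.00038, adjusted 0.000456). In set 4 these differences were 1.07 and 1.81, with Tbx5 and with Tbx4 higher in 2 of 4 lists. Tbx5 was above Tbx4 in 12 of 18 lists and below in 2, by 1.12 ± 2.08 (permutation p = 0.0358, adjusted 0.0358), with 2.60, 1.22, 1.33 and -0.74 in sets 1 to 4. That difference lost its call without mm1179 KO replicate 1, 2 or 3, hs72 KO replicate 1 or 2, hs1467 KO replicate 1, hs1586 KO replicate 1 or WT replicate 1, 2 or 3 (permutation p of 0.0504 to 0.0718). The score 3100 was the most common one and acted as a shared top rank, taken by 3037 to 3629 peaks in each set 4 list and by 1 to 59 in each set 3 list. The highest peak stood at or above it in 15 lists at Tbx5, 5 at Tbx4 and 2 at Pitx1. The Tbx5 minus Tbx4 value of -0.74 in set 4 came from hs1603 KO replicate 2 alone, with 96.9 at Tbx5 and 99.9 at Tbx4. In the other set 4 lists the highest peaks of both windows scored 3100 and tied.

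Region by region, 3 of 22 at Tbx5 (13.6%), 5 of 14 at Tbx4 (35.7%) and 1 of 18 at Pitx1 (5.56%) were called in every list, where 16.5% of all 63594 regions were. Outside set 3, 4 of 22 regions at Tbx5 (18.2%), 7 of 14 at Tbx4 and 7 of 18 at Pitx1 (38.9%) were called in every list, where 29.9% of all regions were. The Pitx1 regions at chr13:55723168-55725619 and chr13:55814952-55818223 were called in every list but the 4 of set 3, a pattern that 7.03% of all regions had and that no region of the other windows had. Of the regions called in every list outside set 3 with a mean percentile of at least 80, a limit chosen after the values were seen, at least 1 set 3 list missed 1 of 2 at Tbx5, 1 of 5 at Tbx4 and 3 of 4 at Pitx1, against 46.5% of 7445 such regions in all. In the other direction, 3 regions at Tbx4 and 2 at Pitx1 were called by all of set 4 and no other list, at mean percentiles of 14.1 to 40.6, as 0.934% of all regions were.

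**Figure D3:**
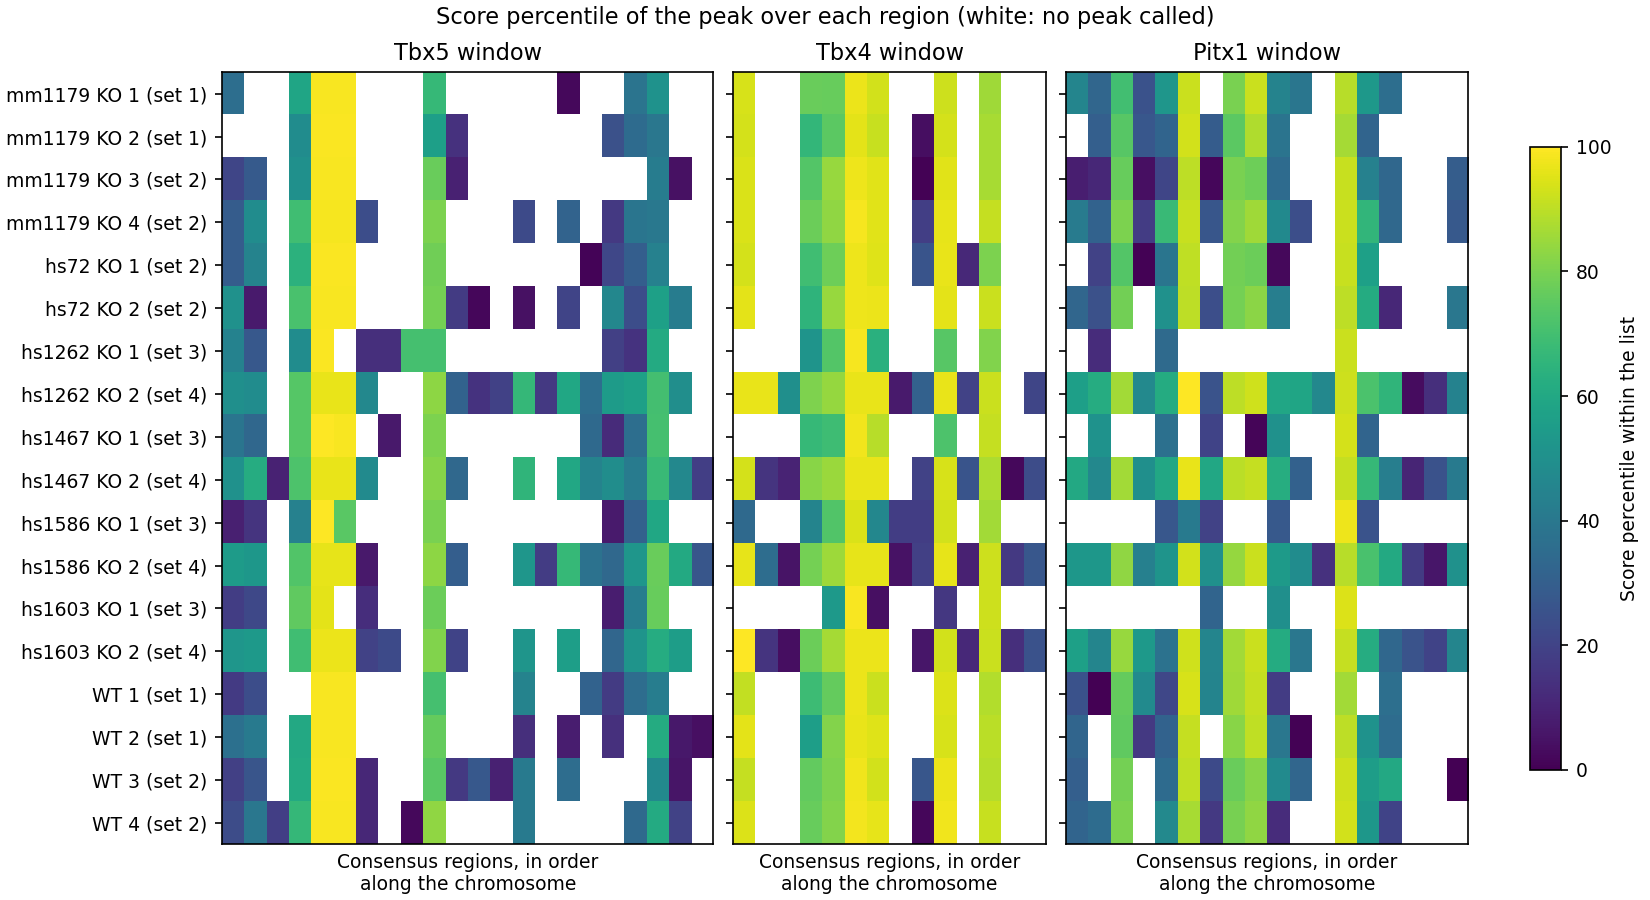
Score percentile (colour, 0 to 100) of the peak over each consensus region, with libraries in rows and the regions of each window in columns, in order along the chromosome; white means that no peak was called. The first broad Tbx5 domain lies at 95.8 or higher in every row, the strongest Tbx4 region at 94.3 or higher and the strongest Pitx1 region at 86.0 or higher, and the rows of set 3 are white over much of the Pitx1 window.

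Between mm1179 KO and WT, no difference in covered length beyond the spread of the libraries was detected in any window. At Tbx5 the mm1179 KO libraries had 56.8, 50.9, 62.5 and 70.01 kb covered in replicates 1 to 4, against 55.2, 63.6, 64.3 and 67.5 kb in WT. The ranges overlapped, with means of 60.1 ± 8.16 kb in mm1179 KO and 62.6 ± 5.26 kb in WT (SD, n = 4 each), a difference of -2.59 kb (exact two-sided permutation p = 0.657). At Tbx4 the mm1179 KO libraries had 26.7, 24.0, 32.0 and 34.3 kb, against 23.5, 23.9, 25.2 and 30.5 kb in WT. These overlapped as well, at 29.2 ± 4.72 kb in mm1179 KO and 25.8 ± 3.23 kb in WT (SD, n = 4 each), a difference of 3.47 kb (exact permutation p = 0.2). Within set 1 and within set 2, a pattern looked for after the values were seen, both mm1179 KO libraries lay above both WT libraries, as in 1.85% of the 120 kb tiles with a peak (exact permutation p = 0.0556 with labels permuted within sets, the smallest that 36 arrangements allow). In set 1 the order rested on close values, 23.96 kb in mm1179 KO replicate 2 and 23.925 kb in WT replicate 2. Per Mb covered in the list, the Tbx4 window held 357 bp in mm1179 KO and 294 bp in WT in set 1, and 313 bp in mm1179 KO and 305 bp in WT in set 2. By that measure the pattern did not hold in set 2. There mm1179 KO replicates 3 and 4 had 329 and 297 bp, against 309 and 300 bp in WT replicates 3 and 4.

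At Pitx1 the mm1179 KO libraries had 27.9, 20.7, 27.6 and 30.0 kb covered, against 22.6, 24.2, 24.9 and 27.2 kb in WT. Replicate 2 of mm1179 KO was below every WT library and the other mm1179 KO libraries were above every one, with means of 26.5 ± 4.02 kb in mm1179 KO and 24.7 ± 1.92 kb in WT (SD, n = 4 each) and a difference of 1.80 kb (exact permutation p = 0.457). Within set 1 the mm1179 KO minus WT difference was -5.55 kb at Tbx5, 1.66 kb at Tbx4 and 0.914 kb at Pitx1, and within set 2 it was 0.374, 5.29 and 2.69 kb. With 70 arrangements the smallest p is 0.0286. Over all 300 kb tiles, 32 of 6688 (0.478%) had an exact permutation p under 0.05 in this comparison, and over all 120 kb tiles 126 of 13790 (0.914%). None passed Benjamini-Hochberg adjustment, and the adjusted p of each window was 1. With that smallest p and so small a share of tiles under 0.05, none could pass. The adjustment therefore cannot show that a difference is absent.

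**Figure D4:**
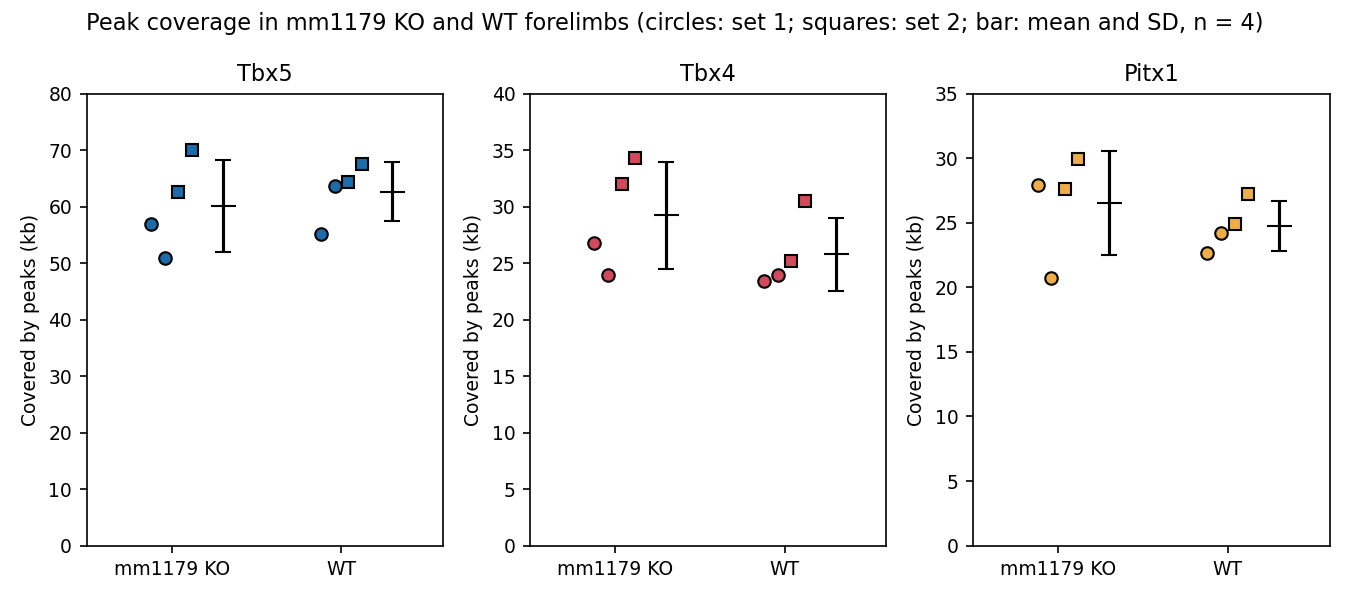
Length covered by peaks (kb, axes from 0) in the Tbx5, Tbx4 and Pitx1 windows, for 4 mm1179 KO libraries and 4 WT libraries. Circles are set 1, squares set 2, and the bar gives mean and SD (n = 4); the 2 groups overlap in each window.

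No region of the 3 windows was called in every mm1179 KO and no WT library, or the reverse, patterns that 0.0299% and 0.066% of all regions had. The nearest was chr5:120332788-120338041 at Tbx5, singled out after its calls were seen. It was called by 1 of 4 mm1179 KO and 4 of 4 WT libraries, and its mean percentile was 40.4. It was also missed by replicate 1 of hs72 KO, hs1262 KO, hs1467 KO, hs1586 KO and hs1603 KO, and called by replicate 2 of each. Missed calls there were thus not confined to mm1179 KO. Weak Tbx5 regions at chr5:120204826-120207279 and chr5:120212625-120214843 had mean percentiles of 34.1 and 35.9. The first was missed only by mm1179 KO replicate 2 and the other only by mm1179 KO replicates 1 and 2, all of set 1. The list of mm1179 KO replicate 2 covered 62.6 Mb, the least of all lists. The shares of all regions with the call patterns of these 3 Tbx5 regions were not counted, and their cause was not tested.

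The hs72 KO libraries had 60.5 and 71.4 kb covered at Tbx5, against 64.3 and 67.5 kb in the WT libraries of the same set. At Tbx4 they had 31.3 and 28.9 kb, against 25.2 and 30.5 kb in WT, and at Pitx1 19.5 and 27.2 kb, against 24.9 and 27.2 kb in WT. The groups overlapped in each window, and 2 libraries against 2 cannot pass a threshold of 0.05.

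The other 4 lines share no set with WT, so line and set cannot be told apart in a comparison with WT. In set 4, replicate 2 of hs1262 KO, hs1467 KO, hs1586 KO and hs1603 KO had 95.3, 97.8, 89.6 and 85.1 kb covered at Tbx5. The same libraries had 52.5, 45.8, 47.2 and 40.7 kb at Tbx4 and 46.5, 43.3, 43.2 and 40.1 kb at Pitx1. The hs1603 KO library was the lowest in each window, and its list also covered the least of set 4, 140.9 Mb against 153.6 to 166.0 Mb. Per Mb covered, it had 604 bp at Tbx5, 289 bp at Tbx4 and 284 bp at Pitx1, and was lowest of set 4 in none of them.

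In set 3, replicate 1 of hs1262 KO, hs1467 KO, hs1586 KO and hs1603 KO had 48.1, 71.6, 70.3 and 45.5 kb covered at Tbx5, where the low values are those of the libraries with no peak in the second domain. They had 30.1, 24.9, 36.2 and 26.4 kb at Tbx4, and 8.085, 17.1, 16.7 and 10.04 kb at Pitx1. Set 3 had the lowest Pitx1 coverage of the 4 sets, at 13.0 ± 4.60 kb (SD, n = 4) against 23.8 ± 3.05 kb in set 1 (SD, n = 4), 26.1 ± 3.58 kb in set 2 (SD, n = 6) and 43.3 ± 2.63 kb in set 4 (SD, n = 4). At Tbx4 set 3 had 29.4 ± 5.02 kb (SD, n = 4), against 24.5 ± 1.49 kb in set 1 (SD, n = 4), 30.4 ± 3.09 kb in set 2 (SD, n = 6) and 46.6 ± 4.84 kb in set 4 (SD, n = 4). What the sets stand for, and the part of depth in these values, was not tested.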

How the data were processed

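An H3K27ac peak list from each of 18 forelimb libraries was used, and the 18 input samples were not analysed here. The submitters' processing notes name MACS 1.4.2, Bowtie 0.12.8, cutadapt 1.1, bcl2fastq 2.17 and CASAVA, with build mm9. Peak calling settings and controls are not given in the sources used here. The deposited lists give positions and the authors' score per peak, 40 or higher, which served to filter peaks or rank them within a list. No counting interval could be computed, and a missing peak is a call not made.

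Covered bases were peak bases inside a window. A consensus region counted as called in a list with any peak overlap, 1 bp being enough. Windows were compared list by list with 100000 sign flips, and mm1179 KO with WT by exact permutation over each window and all genome tiles of its length that held a peak. Named regions were the 5 with the highest mean score percentile per window. Procedures were checked on simulated data. The members, windows and tests were chosen with earlier results of these data known. The work was done in Python 3.11.15 with scipy 1.17.1, numpy 2.4.6 and matplotlib 3.10.9. Region coordinates are 1-based.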

Additional observations from a re-analysis of the deposited data

Results flagged for a closer look

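Of 36 combinations of window, measure and genotype with 4 libraries, 1 had a library far from the rest, where chance gives about 1 in 20. In the Tbx5 window, WT replicate 3 had a highest score percentile of 99.4, and the other WT libraries had 99.1 to 99.2. The highest Tbx5 peak had the shared top score of 3100 in all 4 WT lists, and 398 peaks of WT replicate 3 had that score, against 556 to 668 in the others.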

How the results depend on the processing

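Among 321 values under other settings, 276 left the call or the count (to within 1.5 times) in place, 32 lost their call, 5 counts moved and 8 turned in sign. The cause was not tested, except that within a set of 4 lists the smallest exact p is 0.125, so no call could be kept there. Differences in covered share within sets 1 to 4 were -1.56, -3.28, -4.88 and -8.14 points for Tbx5 minus Tbx4. They were 10.9, 15.3 and 16.2 for Tbx5 minus Pitx1 and 12.5, 20.2 and 24.4 for Tbx4 minus Pitx1 in sets 1, 3 and 4. Differences in highest percentile within sets were 2.60, 1.22, 1.33 and -0.74 for Tbx5 minus Tbx4, the last from hs1603 KO replicate 2 alone. In sets 1, 3 and 4 they were 6.60, 4.40 and 1.07 for Tbx5 minus Pitx1 and 4.00, 3.07 and 1.81 for Tbx4 minus Pitx1. Tbx5 minus Tbx4 was 353 bp per covered Mb, a sign set by a 300 kb against a 120 kb window. In covered share it was 21.1 points with the best-covered 120 kb of each window, which leaves a choice of stretch at Tbx5 and none at Tbx4. Neither is thus a like comparison of density, and the sign in covered share depended on the stretch taken at Tbx5. With equal windows and with widened windows, Tbx5 minus Tbx4 in covered share was -11.9 and -9.74 points, Tbx4 minus Pitx1 was 11.3 and 17.5 points, and Tbx5 minus Pitx1 was 7.77 points with widened windows. With equal windows of 120 kb, Tbx5 minus Pitx1 was -0.55 points in covered share (permutation p = 0.446) and 1.27 in highest percentile (permutation p = 0.588), and Tbx5 minus Tbx4 was -2.69 in highest percentile (permutation p = 0.252). With the median percentile in place of the highest, Tbx5 minus Tbx4 was -35.0 and Tbx5 minus Pitx1 -2.64 (permutation p = 0.247). Without set 1 and without set 2, Tbx5 minus Tbx4 in highest percentile was 0.691 and 1.06 (permutation p = 0.277 and 0.184). The best 120 kb and a shared rank for scores of 3100 and above were chosen after the data were seen, and the shared rank changed no call. With 1 library left out, the covered-share differences were -4.77 to -3.88, 13.6 to 14.1 and 17.6 to 18.6 points, and the highest-percentile differences 0.847 to 1.38, 4.86 to 5.57 and 3.77 to 4.39. The mm1179 KO minus WT difference was -5.90 to 0.478 kb at Tbx5, positive only without mm1179 KO replicate 2 (exact permutation p = 0.914), 1.79 to 5.23 kb at Tbx4 and 0.661 to 3.74 kb at Pitx1. Regions called in every list numbered 3 to 4 at Tbx5, 5 to 6 at Tbx4 and 1 to 2 at Pitx1 with 1 library left out, with 2 at Pitx1 without replicate 1 of hs1262 KO or of hs1603 KO. They numbered 6 at Tbx5 without set 1, 3 at Tbx4 with a minimum score of 100 and 7 at Pitx1 without set 3. Same-numbered mm1179 KO and WT libraries correlated at -0.123 to 0.611 in their deviations over 100 kb tiles, so the numbers did not pair them. A replicate block gives the same differences by construction, -2.59, 3.47 and 1.80 kb at Tbx5, Tbx4 and Pitx1. With 4 pairs the smallest exact p is 0.125, so the block could make no call. The lists do not show depth, and its part in these counts was not tested.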
